A study of Mus musculus with 27 samples.

Results

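Mouse neural crest explants treated with retinoic acid (RA) for 24 h were compared with explants treated for 12 h. The arrays were chosen by title: 4 arrays titled 24h_RA and 3 titled 12h_RA, which made 7 of the 27 arrays of the series. The labels describe dorsal neural tube cut along the midline, with one side of each embryo kept as the control and the other given RA at 1e-06 M in ethanol. Controls at the same times were 3 arrays at 12 h and 4 at 24 h, and they served here only to set the RA-treated change beside the change without RA. The labels give no strain, genotype, embryonic age or number of embryos per array for any group. For the 6 h exposure the labels describe growth overnight on fibronectin in medium with horse serum before RA was added; the time in culture before RA is not stated for 12 and 24 h. The 24 h explants may therefore differ from the 12 h explants in age in culture as well as in hours with RA, and these cannot be told apart. Each array measured total RNA on an Affymetrix MG_U74Av2 chip, and levels are given as log2 of the deposited linear intensity, so that a difference of 1 is a doubling. The titles call the arrays of a group replicates without saying what separates them, and p-values therefore measure the spread between these arrays only.

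Neural crest cells arise at the border between neural tube and surface ectoderm, leave the tube and give rise to peripheral neurons, glia, pigment cells and much of the skeleton and smooth muscle of the head and great vessels. RA, made from vitamin A, binds nuclear receptors that sit on DNA and switches on genes such as the Hox genes, which give cells their position along the body axis, and Cyp26a1, which encodes the enzyme that breaks RA down. An explant of dorsal neural tube can carry neighbouring tissue, such as surface ectoderm, somite and other mesoderm, so markers of these were read beside the crest genes.

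The markers of the labelled tissue lay partly above the array median. Of 9 measured neural crest markers, Sox10, Snai2, Twist1, Ets1 and Erbb3 lay above the array median on all 7 RA-treated arrays, and Ednrb lay below the 25th percentile of each. Neural tube markers Sox2, Sox3, Nes and Fabp7 also lay above the median on every one of these arrays (4 of 7). So did 11 of 13 smooth muscle genes, 9 of 26 striated muscle genes, 9 of 15 endothelial genes and 10 of 20 surface ectoderm and epithelial genes. The counts were 8 of 29 for neuronal genes, 2 of 11 for glial genes and 0 of 8 for melanocyte genes. They were 4 of 16 for blood genes, 3 of 17 for macrophage genes and 4 of 18 for endoderm and yolk sac genes. As many probe sets lie above an array's median as below it, and the share above it on all 7 arrays was not computed. These counts therefore do not by themselves show which tissues were present. In bulk RNA fewer cells of a type and less RNA per cell cannot be told apart. Between arrays of one group the correlation over all probe sets was 0.9897 to 0.9917 for 12 h and 0.9841 to 0.995 for 24 h.

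The scanner records split the 7 arrays over 3 scan days, numbered 3, 4 and 5 among the 9 of the series. Day 3 held 12 h RA 1 and 2 and 24 h RA 3 and 4, and day 4 held 12 h RA 3 and 24 h RA 1. Day 5 held 24 h RA 2 on a chip lot of its own among these arrays. Arrays at 6 h were scanned on days 1 and 2 and those at 48 h on days 6 to 9. They shared no scan day with 12 and 24 h. Where levels at 6 or 48 h are set beside those at 12 and 24 h, time and scan day therefore cannot be told apart. Of 127 probe sets examined by name, 9 had 1 of the 4 arrays at 24 h far from the other 3, and in 6 of the 9 that array was 24 h RA 2. By chance alone about 1 of 20 groups holds such an array. The 127 were named from fits and lists on these same arrays, and they include every named call with scan day as a block. The change from 12 to 24 h is given as the plain group difference and from a fit with scan day as a block. In that fit 24 h RA 2 and its control on day 5 enter only through their difference from each other. Consecutive numbers in the scanner records also joined arrays into 3 sets of 12 h and 24 h arrays: 12 h RA 1 with 24 h RA 3, 12 h RA 2 with 24 h RA 4, and 12 h RA 3 with 24 h RA 1. What these record sets stand for is not stated, and they were found after the files were seen.

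Without a block, 2 of 12422 probe sets passed the threshold of adjusted p 0.05, which is 0.0161% of those tested, and both fell. They measured Tfap2c, the transcription factor AP-2 gamma of early ectoderm and neural crest, and Ltb, lymphotoxin beta, a membrane protein of the tumour necrosis factor family. An unadjusted p under 0.05 was reached by 652 probe sets, where 621 would be expected of that many independent tests. Once scan day was fitted as a block, 53 passed (0.427%), of which 33 were higher at 24 h (0.266%) and 20 lower (0.161%). They named 46 genes, 27 higher and 19 lower. The higher genes included 5 that encode sarcomere proteins and several surface receptors and secreted proteins, and the lower genes included Tfap2c, Tfap2b, Ltb, Ccl2, Mmp9 and a pair of DNA replication clamp loader subunits. With record sets as the block, 145 passed (1.17%), 87 higher (0.7%) and 58 lower (0.467%), and this fit is given only where it changed a call.

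The count with the scan day block rested on single arrays. Without 24 h RA 2 it was 63, with 45 of the 53 calls kept. It was 13 without 12 h RA 1, 17 without 12 h RA 3, 18 without 24 h RA 1, 20 without 24 h RA 4 and 21 without 24 h RA 3, and it was 288 without 12 h RA 2. Across the 14 such fits, each without 1 array of the RA or control groups, 7 of the 53 calls were kept every time, those of Tfap2c, Ltb, Dtd1, Mmp9, Myl4, Myh7 and Tnni1, and 27 were kept in at least 10. All 53 probe sets moved in the same direction on day 3 and on day 4, as did 57.6% of all probe sets. The fit that chose the 53 rests on these same differences within days, so this agreement is not an independent check.

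Tfap2c (92275_at) had log2 intensities of 8.79, 8.77 and 8.83 on the 12 h RA arrays 1 to 3. On the 24 h RA arrays 1 to 4 it measured 7.89, 7.82, 7.49 and 7.76. The highest 24 h array thus lay well under the lowest 12 h array, and the fall was of similar size on both scan days. The difference was -1.06 (SE 0.14), a 2.08-fold fall, with an adjusted p of 0.000508 in limma's moderated test. In the blocked fit it was -1.10 (adjusted p = 0.000146). The 3 record sets gave -1.30, -1.01 and -0.94. In the controls Tfap2c also fell, by 0.74 (adjusted p = 0.0407), and the RA-treated minus the control change was -0.31 (SE 0.20), which did not pass (unadjusted p = 0.123, adjusted p = 1.0). At 48 h the mean RA-treated level was 7.10, below that of 24 h, and at 6 h it was 8.76, beside the 12 h mean of 8.80.

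Ltb (102940_at) measured 8.53, 8.10 and 8.61 on the 12 h RA arrays and 7.18, 6.89, 7.30 and 6.97 on the 24 h RA arrays. No 24 h array reached the lowest 12 h array. The fall of 1.32 (SE 0.17) was 2.50-fold, with an adjusted p of 0.000508, and it was -1.22 in the blocked fit (adjusted p = 0.00157). Ltb was not high throughout: its mean RA-treated levels over the 4 times from 6 to 48 h were 7.32, 8.41, 7.09 and 6.32, with 12 h the highest. In the controls 12 h was also the highest, and the difference between 24 and 12 h was -1.29 (adjusted p = 0.00159, 1 of 7 control calls or 0.0564% without a block). The changes with and without RA differed by -0.04 (SE 0.24, unadjusted p = 0.888).

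Ltb is a known target of NF-kB in immune cells, and its promoter is shown for that reason. The RefSeq sequence of 300 bases around the gene's start, most of it upstream, lies on the plus strand of mouse GRCm38.p6 at chr17:35194257-35194556. Capitals mark the 1 match to the NF-kB motif, found on the minus strand when both strands were searched. The same motif stood in 0.411% of the 32851 promoters of this length.
Ltb: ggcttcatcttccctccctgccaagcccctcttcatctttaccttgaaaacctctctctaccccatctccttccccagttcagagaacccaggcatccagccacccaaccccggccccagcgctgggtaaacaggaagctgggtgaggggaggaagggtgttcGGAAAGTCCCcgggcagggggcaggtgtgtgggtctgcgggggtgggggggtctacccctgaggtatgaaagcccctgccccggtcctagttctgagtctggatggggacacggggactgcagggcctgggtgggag
The match describes the letters of this window and is not a measured binding site.

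Ccl2 and Mmp9, which are likewise made by inflamed and invading cells, were also lower at 24 h. Ccl2 (102736_at), a chemokine that draws monocytes, measured 7.74, 7.65 and 7.21 at 12 h with RA. At 24 h it measured 6.59, 6.68, 6.19 and 4.99, and the groups did not overlap. The 24 h arrays were uneven, with 24 h RA 4 far under the others. The Ccl2 difference was -1.42 (SE 0.34, adjusted p = 0.301) without a block. With scan day as a block it passed at -1.44 (adjusted p = 0.0448), a call kept in 6 of the 14 fits without 1 array. It passed also with record sets as a block (adjusted p = 0.0313). With array weights and no block it passed at -1.79 (adjusted p = 0.0463). Mmp9 (99957_at), the matrix protease gelatinase B, measured 9.77, 10.21 and 10.21 at 12 h and 9.29, 9.62, 9.27 and 9.21 at 24 h. Its difference was -0.72 (SE 0.20, adjusted p = 0.485), and -0.80 with the block (adjusted p = 0.00429). In controls the blocked differences were -1.18 for Ccl2 (adjusted p = 0.056) and -0.73 for Mmp9 (adjusted p = 0.00421). Both genes had their highest mean RA-treated level at 12 h among the 4 times, 7.53 for Ccl2 and 10.07 for Mmp9, against 6.42 and 9.09 at 6 h. A dimmer Mmp9 probe set (162369_f_at) overlapped between the groups and differed by -0.37. Of 17 macrophage genes, 0 passed with or without the block and their median difference was 0.074, with C1qc, Cd14 and Laptm5 above the median of all 7 arrays and Lyz2, Mrc1, Msr1, Ctss and Cd53 under the 25th percentile. The part of such cells in the chemokine values was not tested.

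**Figure D1:**
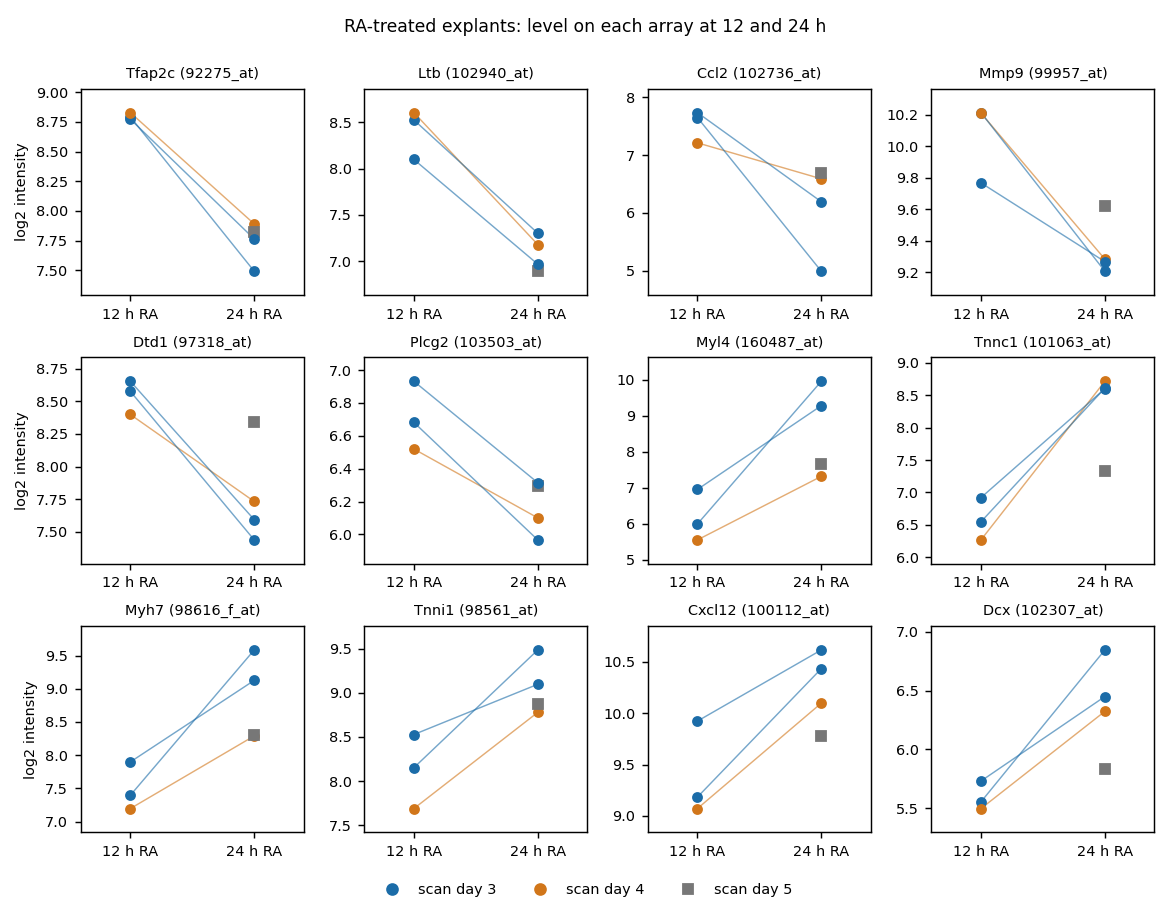
Log2 intensity of 12 probe sets on each of the 3 arrays at 12 h and the 4 arrays at 24 h with RA, coloured by scan day, with lines joining arrays of one record set. Tfap2c and Ltb separate the times on every array, while 24 h RA 2 (grey squares, scan day 5) lies nearest to the 12 h arrays for Dtd1, Tnnc1, Cxcl12 and Dcx.

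Further genes fell with scan day as a block. Dtd1 (97318_at), which removes D-amino acids from transfer RNA, measured 8.58, 8.65 and 8.40 at 12 h and 7.73, 8.34, 7.44 and 7.59 at 24 h. Its blocked difference was -0.90 (adjusted p = 0.00213), and 24 h RA 2 was the array close to the 12 h group. Plcg2 (103503_at), a phospholipase that signals downstream of receptors of blood cells, measured 6.93, 6.68 and 6.52 at 12 h and 6.10, 6.29, 6.32 and 5.97 at 24 h. It differed by -0.57 with the block (adjusted p = 0.0169). In controls the blocked Plcg2 difference was -0.24 (adjusted p = 0.267). The limma test of RA-treated against control change gave -0.33 for Plcg2 (SE 0.15, unadjusted p = 0.0439, adjusted p = 1.0) without a block. It did not pass with scan day (unadjusted p = 0.0289) or record sets (unadjusted p = 0.00484) as a block either. Eif4e, the cap-binding factor of translation, fell by 0.66 (a probe set under the 25th percentile of all 7 arrays, 162222_r_at, differed by 0.10), and Pcbd1, an enzyme of tetrahydrobiopterin recycling, fell by 0.64 with the block. Tcf15, a transcription factor of forming somites, fell by 0.63, and Nodal, a ligand of early patterning, fell by 0.52. Both had been at their highest RA-treated mean at 12 h, with 7.26 for Tcf15 and 6.08 for Nodal.

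Among 30 measured neural crest factors, 23 were lower at 24 h and 7 higher, with a median of -0.161 against 0.014 over the 8251 genes, of which 46.0% were lower. In controls the median of the 30 was -0.118, against 0.024 over the 8251 genes. With scan day as a block, 2 of the 30 fell, Tfap2c and Tfap2b, where 0.161% of all probe sets did, and 0 rose. With record sets as a block 3 fell (0.467% of all probe sets), the third being Zic1 (104169_at, adjusted p = 0.0369, beside 0.0512 with scan day). Tfap2b (92903_at), the AP-2 beta paralogue, measured 7.08, 7.04 and 7.17 at 12 h and 6.79, 7.16, 6.39 and 6.53 at 24 h. The groups overlapped through 24 h RA 2, and the difference was -0.38 (adjusted p = 0.991) without the block and -0.54 (adjusted p = 0.0266) with it. The homeobox genes Dlx1 and Dlx2 differed by -0.91 and -0.89 and did not pass (adjusted p = 0.328 and 0.268 with the block). Dlx2 (92332_at) spread from 6.06 to 7.48 over the 24 h arrays against 7.25 to 7.73 at 12 h. The specifier genes were nearer to 0 than Dlx1 and Dlx2: Sox10 differed by -0.40, Twist1 by -0.36, Tfap2a by -0.23, Pax3 by -0.16 and Foxd3 by -0.12, and Snai2 by 0.19. Sox10 and Twist1 still lay under the 5th percentile of all probe sets, -0.28. Of the 30 factors, 5 had all 24 h arrays below all 12 h arrays, as 3.64% of all probe sets did. The reverse held for 0 of the 30 and 3.81% of all probe sets. The summed intensity of the 30 genes ran from 10968 to 11390 on the 12 h arrays and from 8763 to 9532 on the 24 h arrays.

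The widest differences upward were in striated muscle genes. Of 26 measured, 22 were higher at 24 h, and the median was 0.265 with RA and 0.22 in controls. With RA, 11 had all 24 h arrays above all 12 h arrays, where 3.81% of all probe sets did. With scan day as a block 3 of the 26 rose, where 0.266% of all probe sets did, and 0 fell. With record sets as a block 6 rose (0.7% of all probe sets), the added ones being Myh3, Tnnt2 and Myl4 (probe set 100828_at), with adjusted p of 0.0381, 0.0442 and 0.05. Their summed intensity ran from 7839 to 9950 at 12 h and from 10486 to 12998 at 24 h. These sums describe muscle RNA in the dish, and the part of muscle cells carried with the explants was not tested.

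Tnnc1 (101063_at), the calcium-binding troponin C of slow and cardiac muscle, measured 6.55, 6.92 and 6.27 at 12 h and 8.72, 7.33, 8.61 and 8.60 at 24 h. All 24 h arrays were higher, with 24 h RA 2 well under the other 3. The difference was 1.74 (SE 0.41), 3.33-fold, with an adjusted p of 0.301, and in the blocked fit it was 1.89, 3.70-fold, with an adjusted p of 0.0087. The blocked call was kept in 11 of the 14 fits without 1 array, with an adjusted p of 0.0539 at worst. Tnni1 (98561_at), the inhibitory troponin I of slow muscle, measured 8.15, 8.53 and 7.69 at 12 h and 8.78, 8.87, 9.49 and 9.10 at 24 h. It rose by 0.95 with the block (adjusted p = 0.00301), beside 0.94 without it (adjusted p = 0.615). Myh7 (98616_f_at), the slow myosin heavy chain, measured 7.40, 7.90 and 7.20 at 12 h and 8.29, 8.31, 9.58 and 9.13 at 24 h, a rise of 1.39 with the block (adjusted p = 0.00213). Its probe set is one of a gene family and may share signal with other myosins, and another Myh7 probe set (161547_f_at) differed by 0.03. In the controls of the blocked fit Tnnc1 rose by 1.44 (adjusted p = 0.024). Tnni1 rose there by 0.94 (adjusted p = 0.00197) and Myh7 by 1.39 (adjusted p = 0.00174).

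Promoters of the troponin genes are shown because they rose together with the block. Both come from RefSeq (GRCm38.p6, plus strand) and span the same window of 300 bases, at chr14:31208062-31208361 for Tnnc1 and chr1:135799171-135799470 for Tnni1. Capitals mark E-boxes (CANNTG, the same on both strands), the letters bound by MyoD-type factors, with 2 in Tnnc1 and 4 in Tnni1.
Tnnc1: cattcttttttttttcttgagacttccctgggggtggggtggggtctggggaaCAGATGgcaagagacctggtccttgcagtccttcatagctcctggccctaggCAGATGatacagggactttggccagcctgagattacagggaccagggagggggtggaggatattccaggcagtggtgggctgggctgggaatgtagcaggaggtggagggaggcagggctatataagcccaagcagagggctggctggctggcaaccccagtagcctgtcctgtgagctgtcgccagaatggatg
Tnni1: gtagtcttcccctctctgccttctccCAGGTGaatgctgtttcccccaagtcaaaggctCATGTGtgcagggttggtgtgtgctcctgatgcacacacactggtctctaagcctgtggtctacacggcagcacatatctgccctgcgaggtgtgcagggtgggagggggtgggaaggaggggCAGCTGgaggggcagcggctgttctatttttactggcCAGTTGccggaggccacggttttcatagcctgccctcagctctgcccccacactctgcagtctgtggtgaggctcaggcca
At least 1 E-box stood in 72.3% of the 32851 promoters, so its presence does not set these genes apart. The promoter of Myl4 held 0. The letters AGATAA (11.2% of promoters), CATTCCT (5.36%), the MEF2 motif (0.557%) and the CArG box (1.63%) were each found in 0 of the promoters of Ltb, Myl4, Tnnc1, Tnni1 and Myh7, on either strand.

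Myl4 (160487_at), the myosin light chain of atrial and embryonic muscle, had the largest change among the calls. It measured 6.00, 6.96 and 5.55 at 12 h and 7.32, 7.66, 9.96 and 9.29 at 24 h. The lowest 24 h array was above the highest 12 h array, but the steps were unequal: the record sets gave 3.97, 2.33 and 1.77. The difference was 2.39 (SE 0.60, 5.24-fold, adjusted p = 0.312), and with the block 2.45 (adjusted p = 0.00369). In controls the blocked difference of this probe set was 2.25 (adjusted p = 0.00346). Another Myl4 probe set (100828_at) measured 6.83, 7.37 and 6.97 at 12 h and 7.57, 7.85, 7.92 and 7.57 at 24 h. On average it was brighter than 160487_at at 12 h with RA and dimmer at 24 h. The probe set 100828_at stood for Myl4 in the muscle list. Its difference was only 0.67, and 0.56 with the block (adjusted p = 0.0645), so the size of the Myl4 change depends on the probe set. Mylpf, a fast skeletal light chain, passed on a dim probe set (162101_f_at, 0.69 with the block, adjusted p = 0.0169) that lay under the 25th percentile of all 7 arrays. Its brighter probe set (92881_at) differed by 0.42 (adjusted p = 0.152).

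Within scan day 3 alone, 2 arrays against 2, limma called 10 probe sets, 8 higher and 2 lower at 24 h. The 8 higher ones were Myh6, Myl4, Tnnt2, Myl7, Tnnc1, Myh7, Tnni3 and Mybpc3, each a sarcomere gene of heart muscle, and the lower ones were Tfap2c and Dtd1. Myl7, Tnni3 and Mybpc3 were singled out after their values were seen. Myh6 (101071_at), the alpha myosin heavy chain of heart, measured 3.89, 3.89 and 3.55 at 12 h and 3.82, 3.82, 9.18 and 7.62 at 24 h. It was thus bright on 24 h RA 3 and 4 alone, and lay under the 25th percentile on the other 5 arrays. Over all 7 arrays the groups overlapped, and the difference of 2.33 had an adjusted p of 0.925, or 0.286 with the block. Myl7 (100403_at), the atrial regulatory light chain, had the same shape, with 7.21, 7.10, 9.79 and 9.03 at 24 h against 7.05 to 7.46 at 12 h. Tnni3 (100921_at), cardiac troponin I, measured 4.81, 5.19, 7.06 and 6.46 at 24 h against 4.82 to 5.18 at 12 h. Mybpc3 (160582_at), cardiac myosin-binding protein C, measured 7.36, 7.23, 8.76 and 8.57 against 7.11 to 7.39. None of these 3 passed over all arrays in the blocked fit (adjusted p = 0.257, 0.215 and 0.204).

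The controls were uneven for Myh6 too. It measured 3.72, 4.06 and 3.80 at 12 h and 4.38, 8.62, 6.02 and 6.08 at 24 h without RA, the highest being 24 h control 2. The change of Myh6 with RA differed from that without RA by -0.09 without a block (SE 1.55). The heart transcription factors Nkx2-5 (97777_at) and Gata4 (102713_at) differed by 0.21 and 0.03 with RA, and their groups overlapped. Of the skeletal muscle regulators, Myod1 differed by 0.12, Myog by 0.19 and Myf6 by -0.01, while Myf5 differed by -0.85, the lowest value of the muscle list. Myf5 was the 1 muscle gene of 26 with all 24 h arrays below all 12 h arrays, as 3.64% of all probe sets were, and it did not pass. Embryonic myosin Myh3 (160753_at) measured 4.52, 5.14 and 4.51 at 12 h and 6.04, 5.74, 5.69 and 5.63 at 24 h, without overlap, and had an adjusted p of 0.0645 in the blocked fit.

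**Figure D2:**
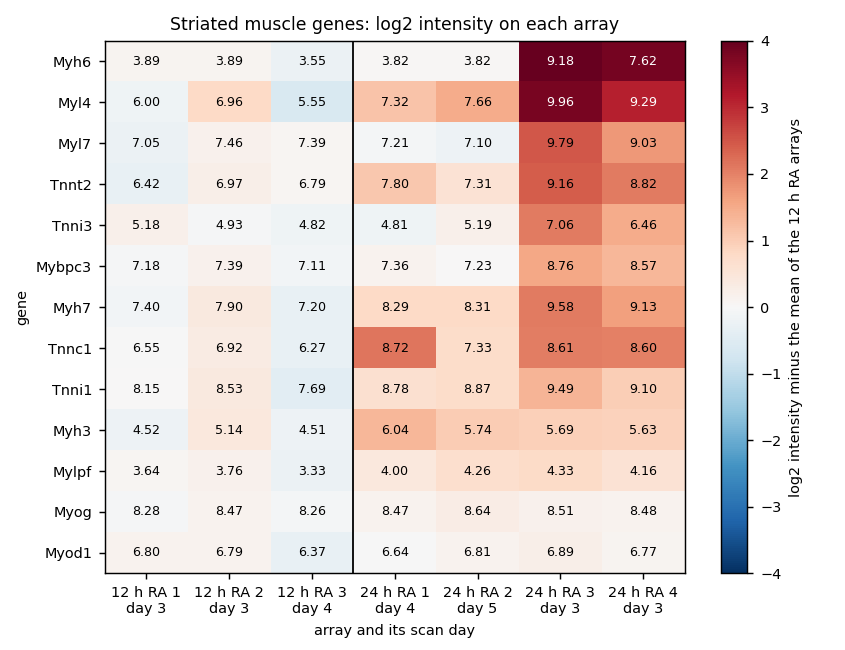
Log2 intensity of 13 striated muscle genes (printed in each cell) on the 7 RA-treated arrays, with the colour giving the difference from the mean of the 12 h arrays. Myh6, Myl7, Tnni3 and Mybpc3 are high on 24 h RA 3 and 4 alone, whereas Tnni1, Myh3 and Mylpf are higher on all 4 arrays at 24 h. For a gene with several probe sets the one with the largest difference is drawn. This is 160487_at for Myl4 and, for Mylpf, 162101_f_at, which lies under the 25th percentile of all 7 arrays.

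Among the other genes that rose with scan day as a block, Cxcl12, a chemokine that guides migrating crest, germ and blood cells, was called on 3 probe sets, at 0.94, 1.01 and 0.69. Its brightest (100112_at) measured 9.18, 9.92 and 9.07 at 12 h and 10.10, 9.78, 10.44 and 10.62 at 24 h. The groups overlapped, since 12 h RA 2 was above 24 h RA 2, and the plain difference was 0.84 (SE 0.27, adjusted p = 0.638). Its mean reached 11.27 at 48 h with RA and 10.81 in controls, where the blocked difference between 24 and 12 h was 0.75 (adjusted p = 0.0277). Epha2, a receptor for ephrins, rose by 0.56, and the tyrosine kinase Tec by 0.64 with the block. Skil, an inhibitor of SMAD signalling, rose by 0.59. For 4 further genes the call rested on some of their probe sets. Egfr, the receptor of epidermal growth factor, rose by 0.42 on each of 2 probe sets, of which one (101841_at) lay under the 25th percentile on 6 of the 7 arrays, while another (101842_g_at) differed by 0.01 (adjusted p = 0.983). The integrin subunit Itgav rose by 0.65 on its brightest probe set (104386_f_at), while the others gave 0.20 (104385_i_at, adjusted p = 0.571) and, under the 25th percentile of all 7 arrays, -0.004 (98366_at). Tead4, a partner of the Hippo pathway's co-activators, rose by 0.45 on 1 probe set (161179_at), while its brightest (102866_at) differed by 0.16 (adjusted p = 0.483) and the other 2 by 0.10 and -0.07. Il6st, the shared signalling chain of interleukin 6 receptors, rose by 0.78, while a probe set under the 25th percentile of all 7 arrays (98349_at) differed by 0.03.

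Dcx (102307_at), a microtubule protein of migrating young neurons, measured 5.73, 5.55 and 5.50 at 12 h and 6.32, 5.83, 6.45 and 6.84 at 24 h. The groups did not overlap, and the blocked difference was 0.84 (adjusted p = 0.0455), kept in 6 of the 14 fits without 1 array. It was the 1 of 29 measured neuronal genes to pass, where 0.427% of all probe sets did, and the list's median was 0.052. In the controls the blocked Dcx difference was 0.35 (adjusted p = 0.392). The changes with and without RA differed by 0.49 without a block (SE 0.29, adjusted p = 1.0), and by the same with scan day as a block (SE 0.25). Prnp, the prion protein, rose by 0.63 with the block, Ahnak, a large scaffold protein under the cell membrane, by 0.96, and Cpt1a, which brings fatty acids into mitochondria, by 0.77. Ahnak (160255_at) measured 9.95, 10.64 and 9.74 at 12 h and 10.81, 11.11, 11.26 and 11.17 at 24 h, and without 12 h RA 2 it passed also with no block (adjusted p = 0.0186). Rest (103720_at), a repressor of neuronal genes, fell with the block by 0.65 (adjusted p = 0.0303) but differed by -0.05 without it. On 24 h RA 2 it measured 8.12 against 5.88, 5.69 and 5.59 on the other 24 h arrays, and its partner control on scan day 5 measured 8.29.

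A probe set with no gene in the annotation used here, 161049_at, also rose. It measured 5.67, 5.96 and 5.48 at 12 h and 6.67, 5.62, 6.71 and 6.93 at 24 h, so 24 h RA 2 again lay with the 12 h arrays. The blocked difference was 0.93 (adjusted p = 0.0266), against 0.27 in controls, and without scan day 5 the probe set 161049_at passed with no block at 1.07 (adjusted p = 0.0109). Its mean reached 8.73 at 48 h with RA and 5.24 without.

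Cell cycle and DNA replication genes were lower as a group. Of 56 measured, 48 were lower (85.7%, against 46.0% of all genes), with a median of -0.191 with RA and -0.313 in controls. With the scan day block 1 of them fell, where 0.161% of all probe sets did, namely Rfc4 (103418_at), a subunit of the clamp loader that puts PCNA on DNA. It measured 8.66, 8.31 and 8.62 at 12 h and 8.25, 7.79, 7.81 and 7.96 at 24 h, a blocked difference of -0.54 (adjusted p = 0.0389). Rfc5 (95612_at), another clamp loader subunit that was not on the list, fell by 0.56 (adjusted p = 0.0211). A dim Rfc5 probe set (104001_at) differed by -0.07 (adjusted p = 0.812) in the same fit. The mitotic kinase Cdk1 differed by -0.47 and the checkpoint gene Mad2l1 by -0.47 with no block. Neither passed there or with scan day as a block, and Mad2l1 (99632_at) passed with record sets as a block (adjusted p = 0.0364). Among 18 p53 targets and apoptosis genes, 14 were higher, 6 of them without overlap, as 3.81% of all probe sets were, and 0 passed with or without the scan day block. Their median was 0.118 with RA and 0.187 in controls. Phlda3 (98056_at), a p53 target that restrains AKT, differed by 0.79 in the scan day fit (adjusted p = 0.0645) and passed with record sets as a block (adjusted p = 0.0313). Cdkn1a, the inhibitor of cyclin-dependent kinases p21, differed by 0.71 on one probe set (94881_at) and by 0.31 on another of like brightness (98067_at), which gave 0.02 in the scan day fit (adjusted p = 0.986), and Mdm2, the ligase that turns over p53, by 0.58.

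Of 20 surface ectoderm and epithelial genes 17 were higher, where 4458 of all 8251 genes were, and 0 passed with or without the block. Their median was 0.24 with RA and 0.044 in controls, and 0.171 with RA in the blocked fit. Krt19 (92550_at), a keratin of simple epithelia, measured 9.45, 9.91 and 9.68 at 12 h and 10.29, 10.55, 10.35 and 10.24 at 24 h, without overlap (0.67, adjusted p = 0.684, or 0.108 with the block). The list's summed intensity ran from 6977 to 9589 at 12 h and from 9953 to 13110 at 24 h, with Epcam under the 25th percentile of all 7 arrays. The part of epithelium in the changes of other genes was not tested. Neural tube progenitor genes had a median of 0.02 over 16 genes and smooth muscle contractile genes 0.078 over 13, with 0 passing in either list.

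**Figure D3:**
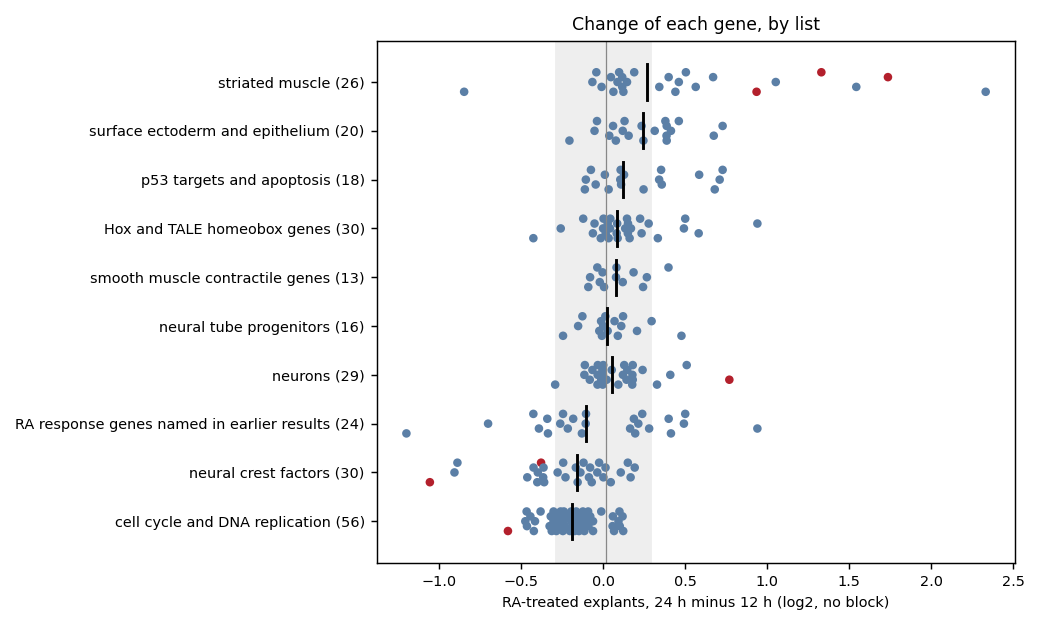
Difference between 24 and 12 h with RA for each gene of 10 lists, on the log2 scale without a block (number of genes in parentheses, black bars are medians, red points passed with scan day as a block, the grey band spans the 5th to 95th percentile of all probe sets, -0.28 to 0.29). The striated muscle list reaches beyond 2 while the cell cycle list lies mostly between -0.5 and 0.1.

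Of 24 genes that earlier results of these data had named as responses to RA, 0 passed between 12 and 24 h with or without the scan day block, 1 passed with record sets as a block (Meox2), and 11 were higher and 13 lower. They were chosen on these same arrays. Cyp26a1 (98320_at), the RA-degrading enzyme, measured 6.88, 6.60 and 6.64 at 12 h and 6.86, 7.05, 7.02 and 7.02 at 24 h, a difference of 0.28 (SE 0.18, adjusted p = 0.992). Its 12 h level already stood above the controls, whose mean was 4.66 at 12 h and 4.56 at 24 h. Dhrs3 (102797_at), which reduces retinaldehyde, differed by 0.24 (adjusted p = 0.992), with all 24 h arrays above all 12 h arrays. Of the Hox genes, Hoxa5 (103086_at) differed most, with 9.40, 9.69 and 8.20 at 12 h and 10.33, 9.62, 9.88 and 10.31 at 24 h. Its groups overlapped because 12 h RA 3 was low and 24 h RA 2 lay under 12 h RA 2, and the difference of 0.94 (SE 0.28) did not pass (adjusted p = 0.579, or 0.115 with the block). At 6 h the mean Hoxa5 level with RA had been 10.87, so the 12 h mean of 9.10 was the lowest of the 4 times, while the controls stood at 7.63 at 12 h.

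Hoxb5 (103666_at) measured 8.26, 8.32 and 8.19 at 12 h and 8.98, 8.45, 8.52 and 9.06 at 24 h, without overlap (0.49, adjusted p = 0.742). Hoxc4 differed by 0.50 and Hoxb1, the hindbrain Hox gene, by -0.43. Of 30 Hox and TALE genes 23 were higher, with a median of 0.086, and 0 passed. Crabp1 (98108_at), which binds RA in the cytoplasm, measured 10.96, 9.96 and 11.46 at 12 h and 9.92, 10.17, 9.83 and 9.50 at 24 h. It differed by -0.94 (adjusted p = 0.725, or 0.112 in the scan day fit), and by -0.85 in controls. With record sets as a block Crabp1 passed at -0.97 (adjusted p = 0.0253), although its groups overlapped. Meox2 (99937_at), a homeobox gene of somites, measured 4.70, 4.47 and 5.44 at 12 h and 3.55, 3.44, 3.47 and 4.22 at 24 h, a difference of -1.20 (adjusted p = 0.725, or 0.0746 with scan day as a block) at levels near the dim end of the arrays. Meox2 passed with record sets as a block, at -1.19 (adjusted p = 0.0276).

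The change from 12 to 24 h with RA was set against that without RA in the same fits, to ask whether RA altered it. No probe set passed in that test, which gave 0 calls in limma without a block and 0 with scan day as a block (0.0% of 12422), while 150 and 485 had an unadjusted p under 0.05. The fit without a block does not use the pairing of RA and control arrays. Consecutive scanner numbers joined RA and control arrays of one time into record pairs. With these pairs as a random block the test gave 0 calls, and 558 had an unadjusted p under 0.05. All 53 probe sets that passed with RA in the blocked fit moved in the same direction in the controls, as 65.3% of all probe sets did. Of them 29 also passed in controls, which is 54.7% of the RA-treated calls and 14.9% of the 195 control calls (1.57%). The block of the fit is shared by RA and control arrays of one day, so these counts are not independent.

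In the fit without a block, the genes with the smallest p for this difference were Arg1, Abcc8, Hbb-y and Ntrk2. The order differed with scan day as a block, where Csn3 (unadjusted p = 0.00138) came before Abcc8 (unadjusted p = 0.0016). Slc2a1 (93738_at) reached an unadjusted p of 0.00206 there, below the 0.00334 of Hbb-y. Arg1 (93097_at), arginase, which splits arginine into urea and ornithine, measured 9.74, 9.50 and 9.70 at 12 h and 9.61, 9.78, 9.42 and 9.36 at 24 h with RA. In controls it measured 8.77, 8.34 and 8.87 at 12 h and 7.34, 7.69, 7.48 and 6.41 at 24 h. Arg1 with RA thus overlapped between the times (-0.10, adjusted p = 0.992), while in controls it fell by 1.43 (adjusted p = 0.0297). The difference between these changes was 1.33 without a block (SE 0.35, unadjusted p = 0.00099, adjusted p = 1.0). With scan day as a block its SE was 0.27 (unadjusted p = 9.24e-05), and it did not pass there either. In the fit with record sets as a block it had an adjusted p of 0.0939, the smallest of all probe sets there. Csn3 (99065_at), kappa-casein, had a like shape: it measured 9.84, 9.57 and 9.97 at 12 h and 9.69, 9.17, 9.65 and 9.62 at 24 h with RA. It differed by -0.26 with RA, beside -0.89 in controls (unadjusted p of the difference = 0.0315 without a block). For Hoxa5 the controls differed by -0.41 and the changes differed by 1.35 without a block (SE 0.40, unadjusted p = 0.0025, adjusted p = 1.0). Hbb-y (97180_f_at), an embryonic globin, differed by 0.72 with RA and by -0.63 in controls. Its record sets with RA gave -0.31, 1.51 and 1.07. A dimmer Hbb-y probe set (103535_at) differed by 0.22 with RA and by 0.11 in controls, in one direction. Abcc8 (103273_s_at) differed by -0.33 with RA and lay under the 25th percentile of all 7 arrays, and its brighter probe set (103274_at) differed by 0.20. Ntrk2 (99069_at), the receptor of brain-derived neurotrophic factor, differed by -0.31 with RA and by 0.22 in controls.

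**Figure D4:**
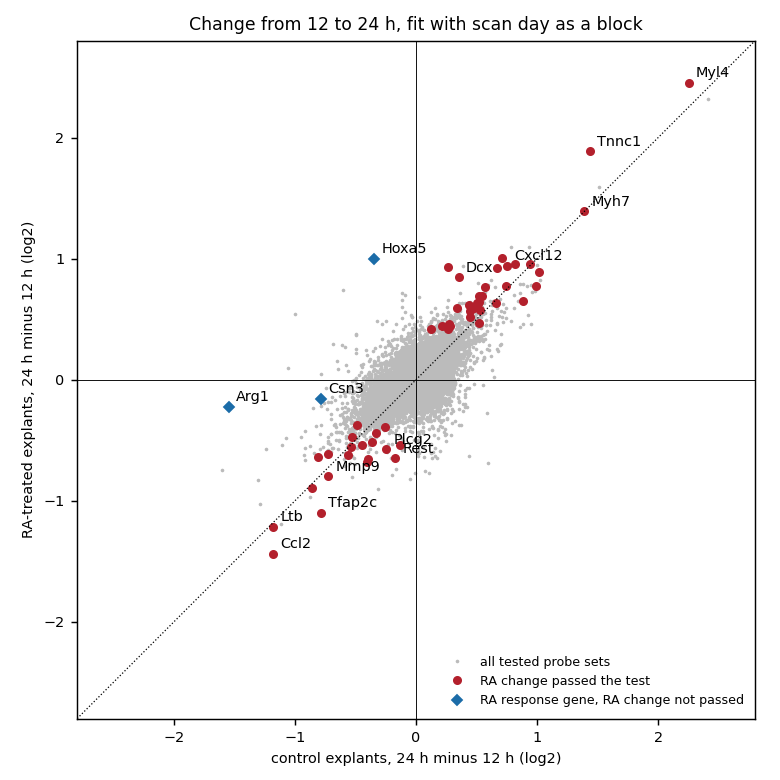
Change from 12 to 24 h in RA-treated explants (vertical) against control explants (horizontal) for all 12422 probe sets, in log2 units from the fit with scan day as a block, with the dotted line marking equal change. The 53 probe sets that passed with RA (red) lie in the quadrants of equal direction, and Arg1 and Csn3 (blue) lie to the left with little change with RA.

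**Figure D5:**
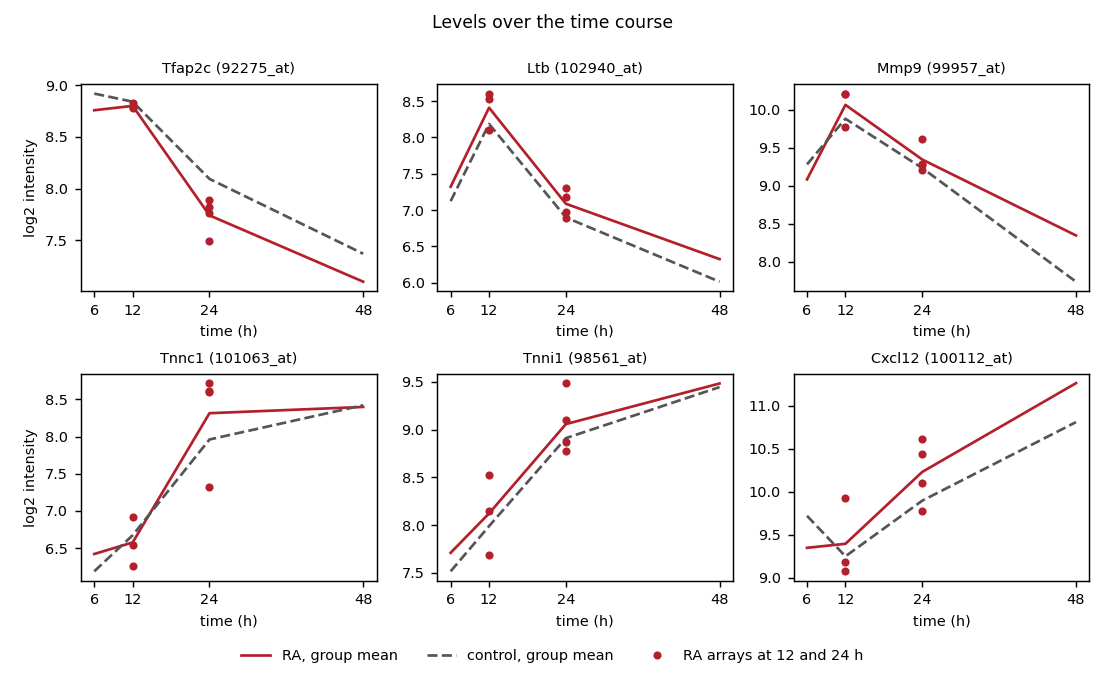
Mean log2 intensity at 6, 12, 24 and 48 h with RA (solid) and in controls (dashed) for 6 probe sets, with the RA-treated arrays at 12 and 24 h as points. Ltb and Mmp9 are highest at 12 h in both treatments, Tfap2c falls after 12 h, and Tnnc1 and Tnni1 stand higher at 24 and 48 h than at 12 h. The arrays at 6 and 48 h share no scan day with those at 12 and 24 h.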

How the data were processed

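RNA levels were taken from the deposited table of linear intensities of 27 arrays. The authors first normalized with RMA Express 0.2 and analysed further in GeneSpring, per the submitters' processing notes, and the sources used here do not say whether GeneSpring altered the deposited intensities. Intensities ran from 3.92 to 17003, with array medians between 92.1 and 100.5, and log2 was taken once here. RMA gives no detection call and compresses dim differences. Precision is limited by how few arrays each group has.

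Of 12488 probe sets, 66 controls were left out. Of the 12422 tested, 10833 named 1 gene, 396 several and 1193 none, by the platform annotation; 0 symbols were updated through gene IDs (GRCm38.p6). For a gene with several probe sets, the brightest over 27 arrays stood for it in a list.

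Groups followed the titles. Differences were tested two-sided with limma 3.58.1 (R 4.3.3) over 8 groups with 19 residual degrees of freedom, with Benjamini-Hochberg adjustment over all 12422 probe sets, and with scan day as a block with 13. Record sets, taken from consecutive numbers in the scanner records, were a further block added after the files were seen: within them the deviations of 12 and 24 h RA arrays from their group means correlated by 0.246, 0.177 and 0.472. The code was tested on simulated data. Genes were named by rule: those past adjusted p 0.05, filled up to 8 per direction by smallest p, the 4 of smallest p for the difference from controls, and the leading members of each list. Every gene called with the scan day block was added after its values were seen. Members, lists and tests were chosen with earlier results of these data known.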

Additional observations from a re-analysis of the deposited data

Results flagged for a closer look

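In 9 of 127 probe sets examined by name, 1 of the 4 arrays at 24 h with RA stood further from the rest than Dixon's critical value allows, and chance alone does so in about 1 of 20 groups. In 6 of the 9 the array was 24 h RA 2, the one scanned on day 5. There Tnnc1 measured 7.33 against 8.60 to 8.72 on the others, and Adm measured 8.08 against 8.33 to 8.37. Fos, an immediate early gene, measured 7.26 on 24 h RA 2 against 8.21 to 8.40. Csn3 measured 9.17 against 9.62 to 9.69, Wnt11 measured 6.58 against 6.20 to 6.26, and Rest measured 8.12 against 5.59 to 5.88. On 24 h RA 1, Tec measured 7.79 against 7.54 to 7.58 and Cyp26a1 measured 6.86 against 7.02 to 7.05. On 24 h RA 4, Meox2 measured 4.22 against 3.44 to 3.55. The causes were not tested.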

How the results depend on the processing

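Without a block, the count of 2 for RA, 24 against 12 h, was 2 with median centring, an intensity trend with robust moderation, the 30% dimmest probe sets left out, the 12 and 24 h arrays only, or record pairs as a random block, and 3 with cyclic loess. It was 53 with scan day as a block, 6 with array weights, 10 within scan day 3, 145 with record sets as a block and 4 without scan day 5 (the last 2 settings chosen after seeing the data). It was 0 with the 7 RA arrays only, where 839 probe sets had an unadjusted p under 0.05. Leaving out each array gave 2 to 4. With scan day as a block the same gave 13 to 288, a range chosen after seeing the data, and all 53 kept their direction in each of those 14 fits. Within scan day 4, 1 array against 1 gave a value with no test. The control count of 7 was 195 with scan day as a block, 378 with record sets, 269 with array weights, 15 with the 12 and 24 h arrays only, 0 within scan day 3 (1118 unadjusted) and 1 to 9 leaving out each array. The difference between both changes gave 0 calls under every setting run. The cause of these shifts was not tested. With the replicate number of the titles as a replicate block the RA count was 2 and the control count 3. The numbers pair no arrays over time: deviations from group means correlated by -0.161, 0.131 and -0.269 between 12 and 24 h RA arrays of equal number. Among named probe sets, no called difference changed sign. Tfap2c and Ltb missed the threshold with the 7 RA arrays only, as did Ltb within scan day 3, with differences of -1.06, -1.32 and -1.18. Signal over background is unknown, since the values carry no detection calls.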
